A study of Mus musculus with 8 samples.

Results

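The pyruvate dehydrogenase complex of brown adipose tissue (BAT) was followed at the RNA level after thoracic aortic constriction (TAC), which narrows the vessel surgically and loads the left ventricle with pressure. The 10 genes are the 5 subunits of the complex (Pdha1, Pdhb, Dlat, Dld and Pdhx), its 4 kinases (Pdk1, Pdk2, Pdk3 and Pdk4) and the catalytic subunit of its phosphatase (Pdp1). Every probe whose RefSeq transcript accession belongs to one of these symbols was taken, which gave 14 of the 55681 probes on the array. Of the genes, 7 had 1 probe, Pdhb and Dld had 2 probes each, and Pdp1 had 3. All 14 probes were well above background on each of the 7 arrays with scanner files, so no filter removed a member. The animals were male C57BL/6NCrSlc mice on normal chow at 23 ℃, operated at 11 weeks of age and collected at 13 weeks, with 4 mice after TAC and 4 after sham surgery (Sham) and 1 one-colour Agilent array for each mouse. The labels place the collection 2 weeks after surgery in one field, which fits these ages, and 4 weeks after it in another. Scanner intensities were used for TAC replicates 1 to 4 and Sham replicates 2 to 4, and Sham replicate 1 entered only through the deposited table of values for all 8 arrays.

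The complex sits in the mitochondrial matrix and turns pyruvate into acetyl-CoA, the step that commits carbon from glucose to oxidation in the citric acid cycle or to fatty acid synthesis. The E1 enzyme, built from the alpha chain Pdha1 and the beta chain Pdhb, decarboxylates pyruvate, the E2 core Dlat passes the acetyl group to coenzyme A by way of a lipoyl arm, and the E3 enzyme Dld, which Pdhx anchors to the core, reoxidises that arm. The kinases switch the complex off by phosphorylating the alpha chain, and the phosphatase switches it on again. In brown fat, glucose carbon that passes through this gate serves both heat production and lipid synthesis. The arrays measured RNA only, and neither the phosphorylation of the alpha chain nor the activity of the complex was measured.

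The tissue carried the RNA of brown fat on every array with a scanner file, which leaves out Sham replicate 1. Intensities are given as multiples of the 75th percentile of the array, on a linear scale. Those of Ucp1 and of marker lists come from the scanner files, and those of the 10 genes come from the table of 8 arrays, whose values are 12.7 to 15.3% higher than the scanner multiples of the same array. Ucp1, the uncoupling protein that defines brown adipocytes, was at 673, 829 and 741 on Sham replicates 2 to 4 and at 330, 596, 575 and 501 on TAC replicates 1 to 4. All 16 brown adipocyte markers were well above background. Their summed intensity was 4849, 5903 and 5126 on the Sham arrays and 3887, 5192, 4908 and 4985 on the TAC arrays, and the brightest probe was that of Cidea, a lipid droplet protein. The Sham and TAC sums overlapped.

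One array stood apart. The first principal component of 33339 probes carried 39.3% of their variance. On it TAC replicate 1 was at 89.6, the other TAC arrays were between -8.58 and 3.58, and the Sham arrays were between -32.6 and -20.3. On the first component of a separate analysis of the table of 8 arrays (34.5% of the variance of 33364 probes), TAC replicate 1 was again apart, at 89.9, and Sham replicate 1 was at -3.16, among TAC replicates 2 to 4 (-7.07 to 4.39) and not with the other Sham arrays (-32.6 to -21.0). The estimates of the 10 genes are therefore given with and without TAC replicate 1, and with Sham replicate 1 added from the table. For other genes the estimate is that of the 7 scanner arrays unless another is named. The 7 scanner files came from 1 slide with Sham in row 1 and TAC in row 2, and the position of an array and the operation cannot be told apart.

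All 5 subunits of the complex and 1 of its 4 kinases, Pdk1, were lower after TAC, whereas the estimates of the other kinases and of the phosphatase were above 0. Pdhb differed most, at 47.6% of its Sham level, followed by Pdk1 at 63.2%. In a limma model, which shares the estimate of spread across probes, 8 of the 14 probes were lower at an unadjusted p under 0.05 and 0 were higher. Of all 33364 probes tested, 8.43% were lower and 4.38% were higher by that rule. By gene, with the brightest probe standing for a gene that has several, 6 of 10 were lower, against 8.06% of the 14990 genes tested, and 0 were higher, against 3.97%. On the 7 arrays every TAC value lay below every Sham value for the same 6 genes, which was so for 10.8% of all genes, and for none of them did TAC lie wholly above Sham (5.36% of all genes). With Sham replicate 1 included, 4 of the 6 remained separate (Pdha1, Pdhb, Pdhx and Pdk1), against 6.51% of all genes for lower and 3.22% for higher. The median log2 fold change was -0.39 over the 10 genes and -0.03 over all genes tested.

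No probe of the array passed the adjusted threshold of 0.05 with limma and Benjamini-Hochberg adjustment, in either direction (0.0% higher and 0.0% lower), and the members had adjusted p-values between 0.196 and 0.798. The unadjusted counts over all probes were 1462 higher and 2814 lower. The paper describes no test for these arrays. Student's t-test, which it used for other comparisons, is called the methods' t-test here. Run on the same values, the methods' t-test gave 1602 higher and 2587 lower before adjustment and 0 and 0 after it. In whole tissue, fewer cells of a type and less RNA per cell cannot be told apart.

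**Figure D1:**
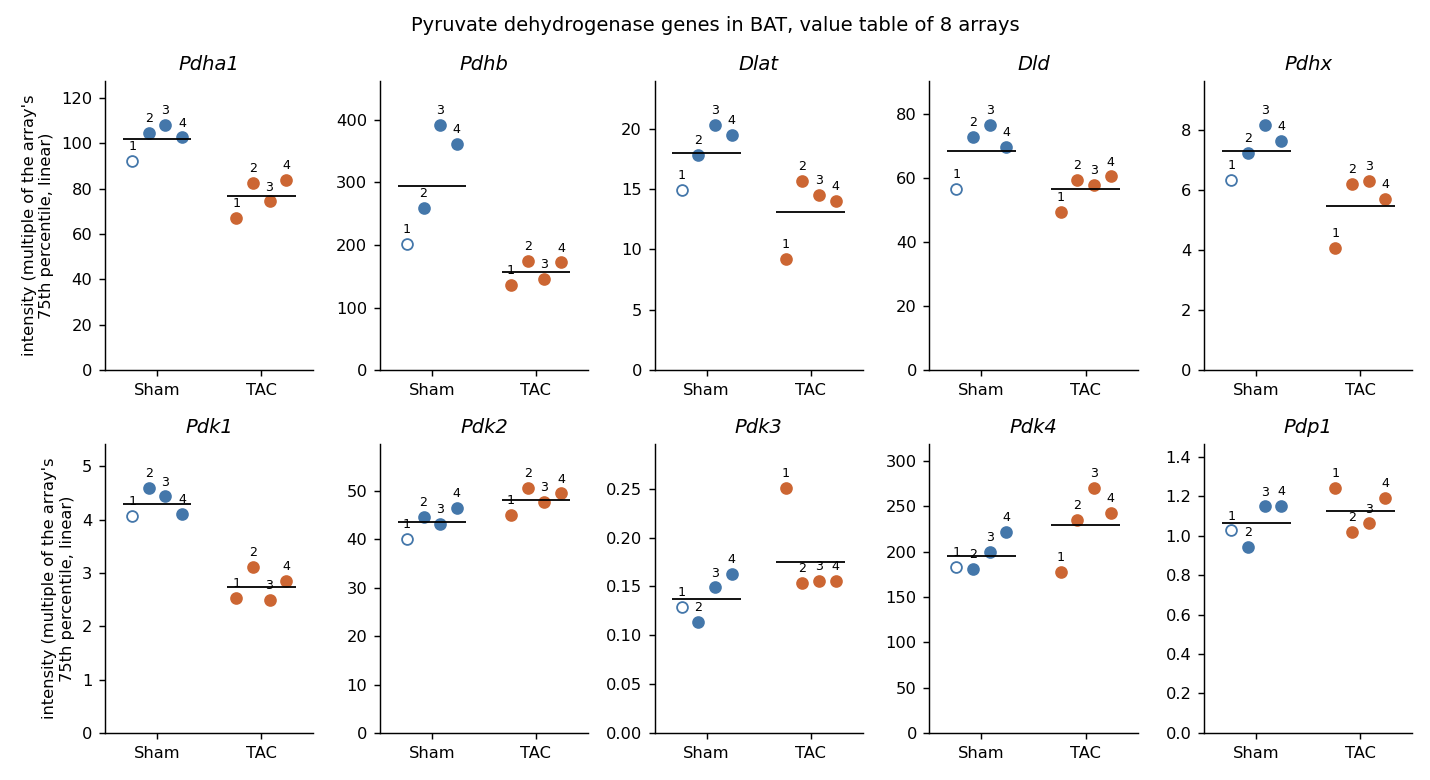
Intensity of the 10 genes on each array, from the table of 8 arrays, as a multiple of the array's 75th percentile (linear axis from 0). Points are arrays labelled by replicate number, the open point is Sham replicate 1, which has no scanner file here, and bars are geometric means; Pdhb and Pdk1 show TAC arrays wholly below Sham arrays, and Pdk4 shows TAC replicates 2 to 4 above the Sham arrays.

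The beta chain of E1, Pdhb, was at 201, 259, 391 and 361 on Sham replicates 1 to 4 and at 137, 174, 146 and 172 on TAC replicates 1 to 4 in the table of 8 arrays. Each TAC array lay below each Sham array, and Sham replicates 1 and 2 were well below Sham replicates 3 and 4. The log2 fold change over the 7 arrays was -1.07 ± 0.17 (SE), or 47.6% of Sham with a 95% confidence interval of 35.8 to 63.2% (limma, unadjusted p = 0.00044, adjusted p = 0.196). With 35 ways to divide 7 arrays into 4 and 3, an exact permutation test (two-sided) gave p = 0.0286, its smallest possible value. The other probe of Pdhb gave -1.06 ± 0.18, so both probes reported the same difference. Without TAC replicate 1 the estimate was -1.004, and with Sham replicate 1 from the table it was -0.91. Sham replicate 1 was 0.72 below the mean of the other Sham arrays on the log2 scale, the widest such gap among the 10 genes.

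The alpha chain, Pdha1, which carries the sites that the kinases phosphorylate, was at 92.3, 104.6, 107.9 and 102.5 on the Sham arrays and at 67.0, 82.5, 74.3 and 84.0 on the TAC arrays. The groups did not overlap on 7 or on 8 arrays. Its log2 fold change was -0.44 ± 0.11 (SE), or 73.8% of Sham (95% confidence interval 62.1 to 87.7%; limma, unadjusted p = 0.0042, adjusted p = 0.221). The exact permutation p was 0.0286. Leaving out TAC replicate 1 gave -0.37, and the table of 8 arrays gave -0.41. The estimate of the beta chain was thus farther below 0 than that of the alpha chain with which it pairs. Relative to its Sham mean, the log2 difference between Pdhb and Pdha1 within an array was -0.63, -0.58, -0.69 and -0.63 on the TAC arrays and -0.35, 0.20 and 0.16 on Sham replicates 2 to 4. In the table, on the same reference, Sham replicate 1 was at -0.54, close to TAC replicate 2 (-0.58). This describes the 2 probes and was not tested.

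The promoters of the E1 genes are printed because these subunits were lower together. RefSeq windows (GRCm38.p6) were matched by symbol for 9 of the 10 members, in 11 windows, and not for Pdp1. The 250 bases before the start site are given 5′ to 3′ on the strand of the gene, in lower case, with motif matches in capitals. The motifs searched on both strands were GCGCANGCG (NRF1), CCGGAAG (the ETS factor GABP), AAGGTCA (a nuclear receptor half-site that ERR binds), GGGCGG (SP1), ACGTG (the core of the hypoxia response element), TGTTTAC (FoxO) and CCAAT (NF-Y). The last was added after the sequences had been read. In the Pdhb window the capitals mark 1 ACGTG on the reverse strand, 2 GGGCGG and 3 CCAAT on the reverse strand, and no matches overlap. The Pdha1 window held none of these letters.
Pdhb, chr14:8172993-8173242, minus strand: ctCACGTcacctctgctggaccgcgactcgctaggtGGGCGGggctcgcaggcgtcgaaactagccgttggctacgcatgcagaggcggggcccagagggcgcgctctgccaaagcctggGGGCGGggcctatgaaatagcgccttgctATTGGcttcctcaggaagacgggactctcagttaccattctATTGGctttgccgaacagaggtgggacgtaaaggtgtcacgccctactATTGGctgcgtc
Pdha1, chrX:160138431-160138680, minus strand: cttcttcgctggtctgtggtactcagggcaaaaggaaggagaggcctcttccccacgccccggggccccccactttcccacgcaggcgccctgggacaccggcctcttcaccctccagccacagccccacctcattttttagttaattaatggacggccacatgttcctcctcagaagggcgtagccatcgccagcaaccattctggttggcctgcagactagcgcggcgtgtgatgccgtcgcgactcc

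Over the 9 members with a window, GGGCGG was found for 5 (Pdhb, Dlat, Pdhx, Pdk1 and Pdk3), CCAAT for 5 (Pdhb, Dld, Pdk2, Pdk3 and Pdk4) and ACGTG for 3 (Pdhb, Pdk2 and Pdk3). These letters stood in 32.7%, 33.8% and 16.6% of all 32851 promoter windows of the same length. The motifs of NRF1, GABP, ERR and FoxO, present in 5.16%, 6.91%, 4.08% and 3.17% of all windows, were found in 0 of the member windows. The 6 genes that were lower after TAC thus had no motif of this set in common. A match describes the sequence and does not show that a factor binds there.

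The E2 core, Dlat, was at 15.0, 17.8, 20.3 and 19.5 on Sham replicates 1 to 4 and at 9.21, 15.7, 14.5 and 14.0 on TAC replicates 1 to 4. TAC replicate 1 was far below the other TAC arrays, and TAC replicate 2 lay above Sham replicate 1. Over the 7 arrays the log2 fold change was -0.53 ± 0.19 (SE), or 69.0% of Sham (95% confidence interval 50.4 to 94.5%; limma, unadjusted p = 0.027, adjusted p = 0.344). The exact permutation p was 0.0571. Without TAC replicate 1 the log2 fold change was -0.36 ± 0.09, a smaller difference with a smaller error. It was -0.46 in the table of 8 arrays and -0.29 in that table without TAC replicate 1, a setting chosen after seeing the data.

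Pdhx, which holds E3 on the core, had a pattern close to that of Dlat. Its values were 6.31, 7.22, 8.15 and 7.64 on the Sham arrays and 4.05, 6.19, 6.28 and 5.69 on the TAC arrays. The lowest Sham array and the highest TAC array differed by only 0.01 on the log2 scale. TAC differed from Sham by a log2 fold change of -0.47 ± 0.17 (SE), or 72.2% of Sham (95% confidence interval 54.7 to 95.2%; limma, unadjusted p = 0.027, adjusted p = 0.345), and -0.32 ± 0.09 without TAC replicate 1, with -0.42 in the table of 8 arrays. For both Dlat and Pdhx the unadjusted p rose above 0.05 without Sham replicate 3 (0.080 and 0.084) and without Sham replicate 4 (0.069 and 0.065).

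E3 itself, Dld, is also the E3 of the 2-oxoglutarate and branched-chain dehydrogenases and a part of the glycine cleavage system. Its brighter probe was at 56.6, 72.8, 76.6 and 69.7 on the Sham arrays and at 49.4, 59.4, 58.0 and 60.5 on the TAC arrays. TAC replicates 2 to 4 lay above Sham replicate 1, so the groups overlapped on 8 arrays. The log2 fold change over 7 arrays was -0.35 ± 0.10 (SE), or 78.5% of Sham (95% confidence interval 66.4 to 92.8%; limma, unadjusted p = 0.011, adjusted p = 0.279), -0.28 without TAC replicate 1 and -0.27 in the table of 8 arrays. For the brighter probe, that table without TAC replicate 1 gave -0.21 (limma, unadjusted p = 0.11). The other probe gave -0.36 ± 0.08 (adjusted p = 0.209), and on it the groups did not overlap on 8 arrays, with a gap of 0.009 on the log2 scale. Of the 5 subunits, Dld had the estimate closest to 0 and Pdhb the one farthest from it, and the intervals of Dlat, Pdhx, Pdha1 and Dld overlapped one another. The interval of Pdhb also overlapped those of Dlat, Pdhx and Pdha1.

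Pdk1 was the kinase that went with the subunits. This kinase is a known target of the hypoxia-inducible factor HIF-1. It was at 4.07, 4.60, 4.44 and 4.11 on the Sham arrays and at 2.54, 3.11, 2.49 and 2.86 on the TAC arrays. The Sham arrays lay close together, and the lowest of them was 0.39 on the log2 scale above the highest TAC array. This gave a log2 fold change of -0.66 ± 0.11 (SE), or 63.2% of Sham (95% confidence interval 53.0 to 75.5%; limma, unadjusted p = 0.00046, adjusted p = 0.196). The exact permutation p was 0.0286. The estimate was -0.62 without TAC replicate 1 and -0.65 on the 8 arrays of the table.

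Pdk4, which fasting, fatty acids and glucocorticoids raise in many tissues, did not go with Pdk1. It was at 183, 181, 200 and 222 on the Sham arrays and at 178, 235, 270 and 243 on the TAC arrays. TAC replicates 2 to 4 lay above all Sham arrays, and TAC replicate 1 lay below them all. The log2 fold change was 0.21 ± 0.16 (SE), or 116% of Sham (95% confidence interval 88.9 to 150%; limma, unadjusted p = 0.23, adjusted p = 0.600). The exact permutation p was 0.286. Leaving out TAC replicate 1 gave 0.33 ± 0.11 (limma, unadjusted p = 0.023, adjusted p = 0.310), whereas leaving out TAC replicate 3 or Sham replicate 2 gave 0.13 each, and the table of 8 arrays gave 0.23. Within each array, the log2 difference between Pdk4 and Pdk1, relative to its Sham mean, was 0.62, 0.72, 1.25 and 0.90 on the TAC arrays and between -0.22 and 0.24 on Sham replicates 2 to 4, and -0.02 on Sham replicate 1 in the table, as a description with no test.

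The promoters of Pdk1 and Pdk4 are printed as those of a pair whose estimates had opposite signs. Pdk1 also differed in sign from Pdk2 and Pdk3, whose windows are not printed. Pdk1 has a window at each of 2 start sites, and the first is shown. The capitals mark 1 GGGCGG in the Pdk1 window and 1 CCAAT on the reverse strand in the Pdk4 window. The hypoxia core ACGTG was not among the letters of the Pdk1 window, nor TGTTTAC or AAGGTCA among those of Pdk4, which says only that these letters are absent from these 250 bases.
Pdk1, chr2:71872974-71873223, plus strand: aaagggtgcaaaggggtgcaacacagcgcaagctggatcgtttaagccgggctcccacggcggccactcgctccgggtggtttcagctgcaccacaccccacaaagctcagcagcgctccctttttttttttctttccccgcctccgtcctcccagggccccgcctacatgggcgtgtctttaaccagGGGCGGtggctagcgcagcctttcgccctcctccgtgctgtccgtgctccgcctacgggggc
Pdk4, chr6:5496279-5496528, minus strand: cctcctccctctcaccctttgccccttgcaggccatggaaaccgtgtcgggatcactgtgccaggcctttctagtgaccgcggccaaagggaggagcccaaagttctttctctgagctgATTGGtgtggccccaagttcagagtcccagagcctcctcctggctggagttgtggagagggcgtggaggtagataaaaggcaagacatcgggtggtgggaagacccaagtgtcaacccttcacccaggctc

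Pdk2, the most widely expressed of the kinases, was at 40.1, 44.6, 43.2 and 46.5 on the Sham arrays and at 45.1, 50.7, 47.8 and 49.5 on the TAC arrays. The groups overlapped only through TAC replicate 1 and Sham replicate 4. Its log2 fold change was 0.12 ± 0.08 (SE; limma adjusted p = 0.545), and the interval ran from 95.3 to 125% of Sham. It was 0.16 without TAC replicate 1 and 0.15 in the table of 8 arrays. With quantile normalization it was 0.20 and with normexp background correction 0.21 (limma, unadjusted p = 0.038 and 0.025). Pdk3 was the dimmest member, at 0.129, 0.114, 0.149 and 0.163 on the Sham arrays and 0.251, 0.154, 0.156 and 0.156 on the TAC arrays. Its log2 fold change of 0.33 ± 0.21 (limma adjusted p = 0.532) was 0.16 without TAC replicate 1, the one TAC array above all Sham arrays, and 0.35 in the table of 8 arrays.

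Pdp1, the phosphatase that calcium stimulates, had estimates above 0 on its 3 probes. The brightest probe was at 1.03, 0.945, 1.15 and 1.15 on the Sham arrays and at 1.24, 1.02, 1.06 and 1.19 on the TAC arrays, with overlapping groups. The log2 fold change of this probe was 0.08 ± 0.12 (SE), with an interval of 87.0 to 128% of Sham (limma adjusted p = 0.798). The estimate was -0.02 without Sham replicate 2, 0.03 without TAC replicate 1 and 0.08 in the table of 8 arrays. The other probes of Pdp1 gave 0.22 ± 0.11 and 0.13 ± 0.12. In the table of 8 arrays the first of these 2 was at 0.25 (limma, unadjusted p = 0.047, adjusted p = 0.347).

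**Figure D2:**
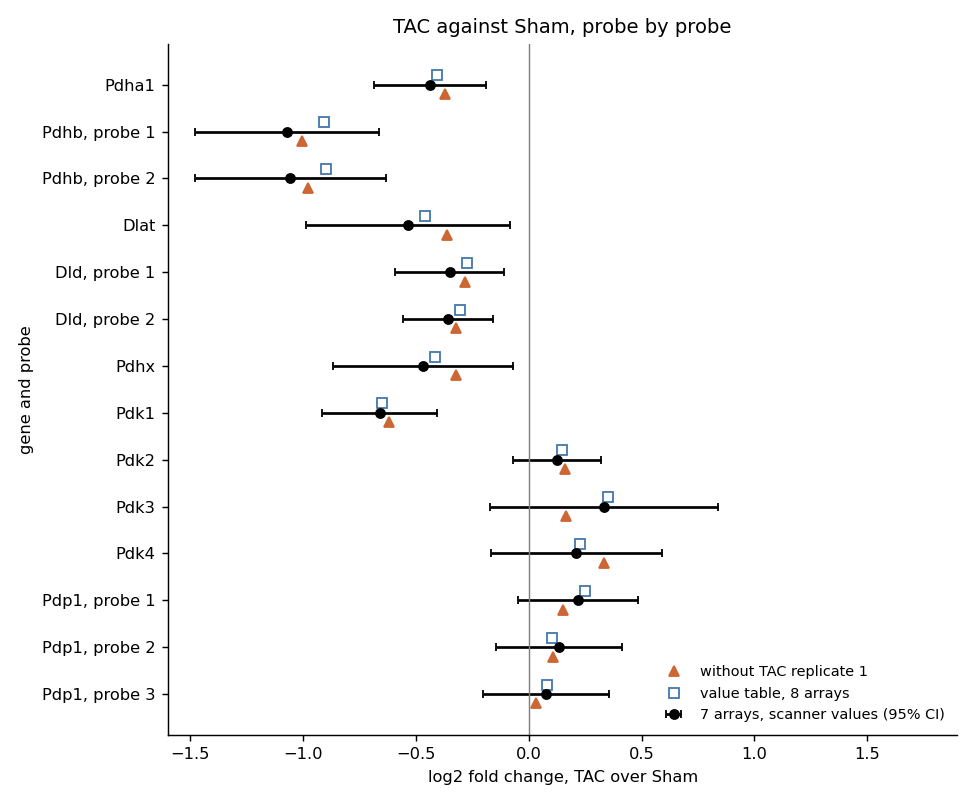
Log2 fold change of TAC over Sham for the 14 probes. Black points and bars are the limma estimate and its 95% confidence interval over 7 arrays, triangles leave out TAC replicate 1 and squares use the table of 8 arrays; the bars of the 5 subunits and Pdk1 lie below 0 and those of Pdk2, Pdk3, Pdk4 and Pdp1 include 0.

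The next list holds genes that supply or use pyruvate. Counts of lower and higher genes in a list refer to the sign of the estimate unless a p is named, and by that sign 55.1% of all genes tested were lower and 44.9% higher. Of the 14 genes of pyruvate, 8 were lower and 6 higher, close to those shares, with a median log2 fold change of -0.13, and 5 were lower at an unadjusted limma p under 0.05 (8.06% of all genes). Mpc1 and Mpc2, the paired subunits of the mitochondrial pyruvate carrier, had log2 fold changes of -0.72 ± 0.21 and -0.54 ± 0.16 (SE). Ldha, which interconverts pyruvate and lactate, was at -0.60 ± 0.16, and Pkm, the last enzyme of glycolysis, at -0.45 ± 0.12. Me1, the cytosolic malic enzyme that makes pyruvate and NADPH, was at -1.88 ± 0.41, or 27.2% of Sham. Of these 5, all but Pkm had TAC below Sham on all 8 arrays (6.51% of all genes). Gpt2, a mitochondrial alanine transaminase, was at 0.27 ± 0.12, and its groups did not overlap on 7 arrays but overlapped on 8. None passed adjustment (lowest adjusted p = 0.197).

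Genes that supply or use acetyl-CoA outside the complex had the median farthest below 0 among the lists around it. Of 10 genes, 9 were lower, the median log2 fold change was -0.91, and TAC was wholly below Sham on 8 arrays for 6 (6.51% of all genes). Citrate is exported from the matrix by Slc25a1, which was at -1.47 ± 0.30 (SE). Acly, which splits citrate back into acetyl-CoA in the cytosol, was at -1.88 ± 0.28, and Acss2, which makes acetyl-CoA from acetate, at -1.71 ± 0.21, or 30.6% of Sham. Acaca, the carboxylase that starts fatty acid synthesis, was at -1.72 ± 0.27, and Acacb, its mitochondrial counterpart, at -0.35 ± 0.14. Fasn, the fatty acid synthase, was at -2.94 ± 0.96 over all TAC arrays and at -2.03 without TAC replicate 1. The list's median was -0.73 without that array, and its lowest adjusted p was 0.196.

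For enzymes built like the complex the log2 fold changes were small. Of 11 genes of the sister 2-oxoacid dehydrogenases, the glycine cleavage system and their kinase and phosphatase, 9 were lower and 2 higher, and the log2 fold changes lay between -0.18 and 0.09 with a median of -0.08. None had an unadjusted limma p under 0.05. The smallest p values of the list were those of Dlst, the E2 core of 2-oxoglutarate dehydrogenase, at -0.18 ± 0.09 (SE), Bckdk, the kinase of the branched-chain enzyme, at -0.14 ± 0.12, and Bckdha, its E1 alpha chain, at -0.15 ± 0.15. Without TAC replicate 1 these were -0.14, -0.06 and -0.03. The groups of Dlst did not overlap on 7 arrays but overlapped on 8. The median of the list without that array was -0.01. Among other regulators of the pyruvate enzyme, Pdp2, the second phosphatase, was at -0.07 ± 0.19 (0.07 without TAC replicate 1), and Pdpr, the regulatory subunit of the phosphatase, at -0.19 ± 0.18 (-0.04 without it), while Pdha2, the alpha chain of the testis, was too dim to be tested. The difference between the lists was not tested.

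Supply of the lipoyl arm and of thiamine, both cofactors of the complex, leaned the same way as the subunits. All 10 genes tested were lower. Their median log2 fold change was -0.21 (-0.14 without TAC replicate 1), and 4 of them had an unadjusted limma p under 0.05 (8.06% of all genes lower by that rule). Among these were Ndufab1, the mitochondrial acyl carrier protein, at -0.72 ± 0.30 (SE) and at -0.45 without TAC replicate 1, and Oxsm and Mecr, enzymes of mitochondrial fatty acid synthesis, at -0.31 ± 0.13 and -0.27 ± 0.10. Lias, which builds lipoate on the subunits, was at -0.12 ± 0.09, and Cbr4, a reductase of the same synthesis, at -0.19 ± 0.09. For both, the groups did not overlap on 7 arrays but overlapped on 8. Without TAC replicate 1, Oxsm, Mecr, Lias and Cbr4 were at -0.20, -0.23, -0.07 and -0.14. Slc19a3 was too dim to be tested, and Lipt2 and Hsd17b8 had no matched probe.

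**Figure D3:**
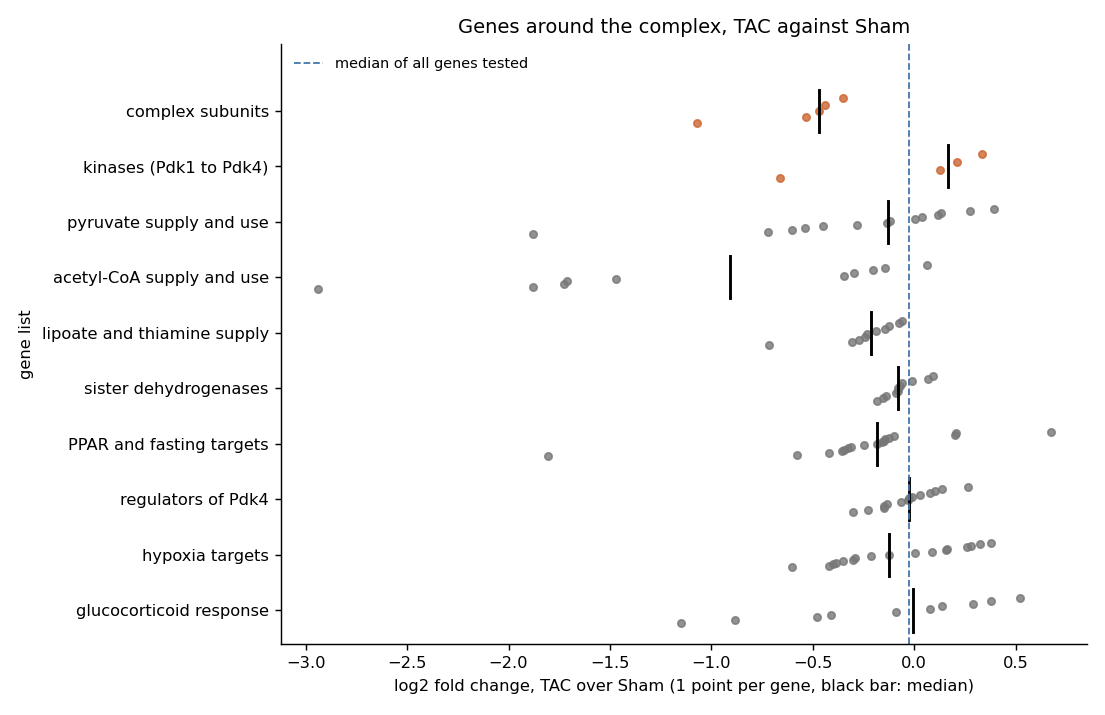
Log2 fold change of TAC over Sham, 1 point per gene, for the subunits, the kinases and 8 gene lists around the complex, with black bars at the medians and a dashed line at the median of all genes tested (-0.03). Medians are -0.47 for the subunits, -0.91 for the genes of acetyl-CoA supply and use and -0.08 for the sister dehydrogenases.

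Genes known to move with Pdk4 under PPAR and in fasting did not form a common direction with it. Of 17 tested, 14 were lower and 3 higher, with a median log2 fold change of -0.18. This median was -0.16 in the table of 8 arrays and -0.05 in that table without TAC replicate 1. Angptl4, a secreted inhibitor of lipoprotein lipase, was at 0.67 ± 0.18 (SE), or 159% of Sham, with TAC above Sham on all 8 arrays (limma adjusted p = 0.255). Hadha, a subunit of the trifunctional protein of beta-oxidation, was at -0.42 ± 0.14, and Plin2, a lipid droplet protein, at -0.58 ± 0.25. Acot1, Acadm and Slc25a20, all of fatty acid handling, were at -1.81 ± 0.93, -0.25 ± 0.13 and -0.36 ± 0.19. Without TAC replicate 1 these were -0.92, -0.14 and -0.18, and Plin2 was at -0.38. Fgf21 was too dim to be tested.

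Of 14 transcriptional regulators of Pdk4, 9 were lower and 5 higher, with a median log2 fold change of -0.03, as for all genes. Esrrg, the receptor ERR gamma, was at 0.26 ± 0.10 (SE), with TAC above Sham on all 8 arrays, and Esrra, ERR alpha, was at -0.23 ± 0.12. Srebf1, a regulator of lipid synthesis, was at -0.30 ± 0.16. In the glucocorticoid response, 5 of 10 genes were lower and 5 higher (median -0.01). The metallothioneins Mt1 and Mt2 were at -0.41 ± 0.14 and -0.88 ± 0.16, Dusp1, a phosphatase of MAP kinases, was at -1.15 ± 0.37, Zbtb16 was at 0.52 ± 0.15, and the clock gene Per1 was at -0.09 ± 0.08, with groups that did not overlap on 7 arrays but overlapped on 8.

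Pdk1 is often read together with other hypoxia targets, of which 17 were tested. Of these, 9 were lower and 8 higher, with a median log2 fold change of -0.12, and 2 in each direction had an unadjusted limma p under 0.05 (8.06% of all genes lower and 3.97% higher). The counts by sign were close to the shares of all genes. Ldha, which also stands in the pyruvate list, and Pgk1, a glycolytic enzyme, were at -0.60 ± 0.16 and -0.30 ± 0.09 (SE). Vegfa, the endothelial growth factor, and Ndrg1 were at 0.26 ± 0.10 and 0.38 ± 0.12, with TAC above Sham on all 8 arrays. Egln1, an oxygen-sensing prolyl hydroxylase, was at -0.21 ± 0.10. The list as a whole had no common direction to set beside that of Pdk1. Car9 was too dim to be tested, and Ero1l had no matched probe.

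By their profile over the 7 arrays, centred on the mean of each gene, the genes nearest to Pdha1 among 14975 were Pmpcb, Cep126, Ugp2, Mto1 and Bphl, with mean absolute differences of 0.0320 to 0.0398 on the log2 scale. Their log2 fold changes lay between -0.49 for Bphl and -0.36 for Ugp2. The genes nearest to Pdk4 were Tmcc1, Ylpm1, Esf1, Adat2 and Dhrs13, with mean absolute differences of 0.0315 to 0.0594 and log2 fold changes between 0.13 for Adat2 and 0.32 for Dhrs13. Since likeness was taken over these same arrays, fold changes near those of Pdha1 and Pdk4 follow from the choice.

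Markers of other cells moved with some of the arrays on which these results rest. The macrophage markers were high on TAC replicate 1. Their median, relative to Sham, was 1.43 on this array and -0.16, -0.45 and -0.35 on TAC replicates 2 to 4 (log2), and their summed intensity was 103 against 50.6, 42.6 and 47.5 on those arrays and 50.6, 51.0 and 54.3 on the Sham arrays. Of the 14 markers, 11 were higher and 3 lower, with the brightest probe for Itgam, and the median log2 fold change of 0.11 was -0.32 without TAC replicate 1. By p the first of them were Cd14 at 0.38 ± 0.14 (SE), Cd163 at -0.61 ± 0.40 and Itgam at 0.16 ± 0.16, of which Cd163 was at -0.35 and Itgam at 0.04 without that array. The lymphocyte markers were likewise at 1.06 on TAC replicate 1, while TAC replicates 2 to 4 ranged from -0.19 to -0.03. Their sum was 21.0 on that array, between 10.9 and 11.9 on the others, and the brightest probe was that of Cd4. Of 9 tested, 8 were higher, among them Cd2 at 0.54 ± 0.40, Ptprc at 0.44 ± 0.58 and Cd52 at 0.59 ± 0.56, which were 0.21, -0.11 and 0.03 without TAC replicate 1. The median log2 fold change of these markers was 0.09, and -0.11 without that array. Of the B cell markers, Cd79a, Ms4a1 and Pax5 were well above background on at most 2 arrays, and the T cell marker Trbc1 had no matched probe. All 5 subunits had their lowest value on TAC replicate 1, and all 5 stayed lower without it, at -0.28 for Dld to -1.004 for Pdhb.

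RNA of skeletal muscle, a tissue that also expresses Pdk2 and Pdk4, was present in unequal amounts in both groups. The median of its 22 markers, relative to Sham, was -0.86, 0.89 and -0.08 on Sham replicates 2 to 4 and 1.52, 1.12, -0.59 and 1.59 on TAC replicates 1 to 4 (log2). Of these markers 21 were higher after TAC and 0 had an unadjusted limma p under 0.05, with Actn3, Ckm and Pygm at 1.505 ± 0.68, 1.16 ± 0.68 and 0.89 ± 0.42 (SE). The summed intensity was 869, 1036 and 841 on the Sham arrays and 1004, 1196, 883 and 1198 on the TAC arrays. Most of this signal came from the probe of Car3, which adipocytes also express, and without Car3 it was 108, 298 and 164 on the Sham arrays and 414, 345, 117 and 441 on the TAC arrays. The part of muscle RNA in the values of the kinases was not tested.

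The brown adipocyte markers were lower for 15 of 16 genes, with a median log2 fold change of -0.22. This median was -0.31 in the table of 8 arrays and -0.34 without Sham replicate 4. Ucp1 was at -0.61 ± 0.21, Otop1 at -0.90 ± 0.32, Elovl3, a fatty acid elongase, at -2.48 ± 1.09 (-1.47 without TAC replicate 1), and Plin1 at -0.35 ± 0.15 (SE). Relative to Sham, the median of the list was -0.39, -0.24, -0.13 and -0.21 on TAC replicates 1 to 4 (log2), and its part in the lower values of the subunits was not tested. Endothelial markers, of which 8 were higher and 2 lower, ranged from -0.06 to 0.39 with a median of 0.05, and included Emcn at 0.39 ± 0.12, Tie1 at 0.34 ± 0.12 and Vwf at 0.16 ± 0.11. Their sum was 130 to 147 on all arrays, with the brightest probe for Egfl7. Erythroid markers, of which 4 were lower and 1 higher, had a median of -0.07 (0.12 in the table of 8 arrays), with Hba-a1 at -0.07 ± 0.25, Hbb-bt at -0.08 ± 0.26 (both -0.14 without TAC replicate 1) and Slc4a1 at -0.19 ± 0.22. Their sum, in which the probe of Hba-a2 was brightest, ranged from 1389 to 2163 on the Sham arrays and from 1245 to 1928 on the TAC arrays. Hbb-bs and Ahsp had no matched probe. White adipocyte markers, of which 5 were higher and 2 lower, ranged from -0.13 to 0.81 with a median of 0.22 (-0.02 in the table of 8 arrays without TAC replicate 1), and included Nnat at 0.81 ± 0.64, Mest at 0.66 ± 0.45 and Agt at 0.30 ± 0.20 (0.21, 0.27 and 0.16 without TAC replicate 1). Their sum was 27.5 to 34.5 on the Sham arrays and 26.7 to 43.5 on the TAC arrays, with the brightest probe for Retn, while Hoxc9 was not well above background on any array.

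**Figure D4:**
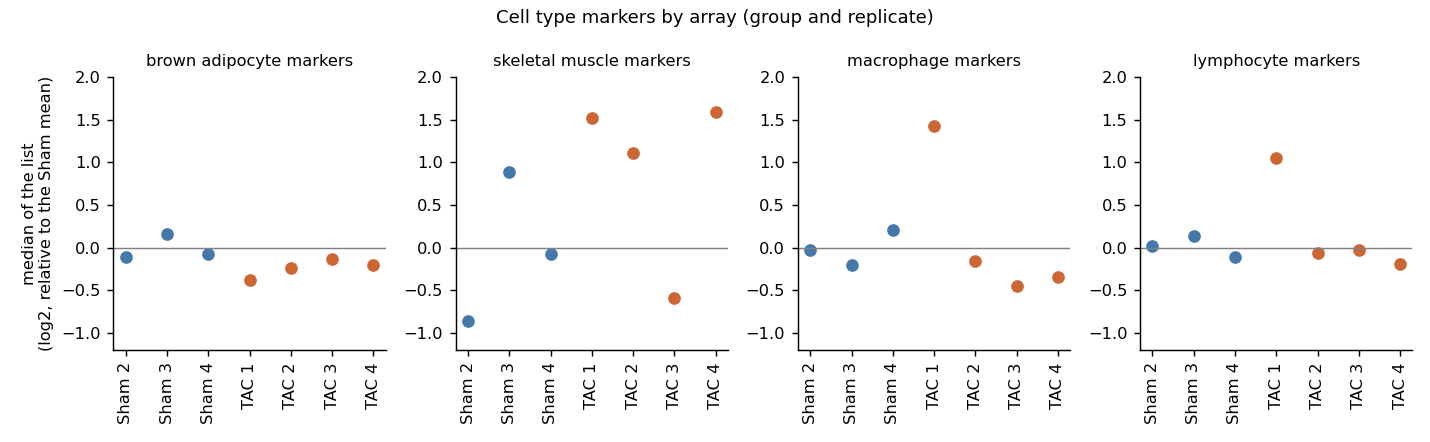
Median of 4 marker lists on each array with a scanner file, as log2 relative to the Sham mean, with Sham arrays in blue and TAC arrays in orange. Macrophage and lymphocyte markers stand high on TAC replicate 1 (1.43 and 1.06), and muscle markers vary within both groups.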

How the data were processed

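Total RNA of BAT from 8 mice was labelled with Cy3 and hybridised to one-colour Agilent arrays. The authors extracted the spots with Agilent Feature Extraction 10.7.1.1 (submitters' processing notes), and the deposited scanner intensity of 7 arrays is background-subtracted, linear and not scaled between arrays. The deposited table of intensity values for 8 arrays equals, on the 7 with scanner files, these intensities times a constant for each array (for 100% of single-spot probes over 100 units, within 1%), with a 75th percentile of 1.002 to 1.004 and a median of 0.091 to 0.098 in each column; how Sham replicate 1 was treated is not given in the sources used here.

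From 59305 non-control spots per array, spots marked as outliers (134 to 191 per array) were left out, the log2 intensity minus the 75th percentile of the array was taken, and spots of a probe were averaged. Of the spots, 54.5 to 64.3% were well above background. A probe was tested if 3 or more arrays had it well above background and each group measured it on 2 or more. The test was run with lmFit and eBayes of limma 3.58.1 (R 4.3.3), without covariates, with Benjamini-Hochberg adjustment over 33364 probes. The number of arrays and their spread limit the precision. Symbols came from a RefSeq gene table (GRCm38.p6) by unversioned accession, for 28026 of 55681 probes (50.3%) and 94.1% of those with a RefSeq accession. The brightest tested probe stands for a gene.

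Named were all members, and from each of 16 gene lists the 3 genes with the smallest unadjusted p and up to 3 more whose groups did not overlap, though not every gene of this rule is reported here. Members and lists were chosen with earlier results of these data known, so lists are described by counts and medians and not tested. The nearest profiles were the 5 genes with the smallest mean absolute difference of centred log2 values. The limma script was tested on simulated data. Alternatives were other scalings, normexp (offset 50) with quantile normalization, other filters, outlier spots kept, the table of values, an intensity trend, the methods' t-test, a replicate block, a gene's probes averaged, each array left out and, chosen after seeing the data, weights for arrays and the table lacking TAC replicate 1.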

Additional observations from a re-analysis of the deposited data

Results flagged for a closer look

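In each of the 14 probes, the TAC arrays and, in the table of 8 arrays, the Sham arrays were searched for a lone value, which made 28 groups of 4. Of these, 1 had one, and chance gives about 1 in 20. Pdk3 on TAC replicate 1 was at -2.18 on the log2 scale of the scanner values, while the other TAC arrays were between -2.88 and -2.85, so that its gap to the nearest array was 0.957 of the range of the group. This array also held the high macrophage and lymphocyte markers, whose part in the Pdk3 value was not tested.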

How the results depend on the processing

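The log2 fold changes of the 10 genes kept their direction in 219 of 220 comparisons with an alternative, and the adjusted p stayed above 0.05 in all 220 (lowest 0.0538). The exception was Pdp1, which went from 0.08 to -0.02 without Sham replicate 2. The count overstates the number of separate checks. The other filters, outlier spots kept, the intensity trend and the methods' t-test returned the main estimate for each gene. The replicate block repeated the estimate without TAC replicate 1 in the scanner values and that of the table of 8 arrays. Averaging could change only genes with more than 1 probe. Leaving out 1 array at a time gave ranges of -1.26 to -0.95 for Pdhb, -0.49 to -0.37 for Pdha1, -0.62 to -0.36 for Dlat, -0.54 to -0.32 for Pdhx, -0.38 to -0.28 for Dld, -0.72 to -0.62 for Pdk1, 0.10 to 0.16 for Pdk2, 0.16 to 0.44 for Pdk3, 0.13 to 0.33 for Pdk4 and -0.02 to 0.13 for Pdp1. The number of probes past an adjusted p of 0.05 was 0 in each direction except for 1 lower with median scaling, 1 lower with array weights and, with 1 array left out, 0 to 7 higher and 0 to 1 lower (7 higher and 1 lower without TAC replicate 4); the cause was not tested. Of the 14 member probes, 6 to 8 were lower at an unadjusted p under 0.05 in every setting. By gene, the unadjusted p of Dlat and of Pdhx rose above 0.05 in 3 of 22 settings (the methods' t-test, without Sham replicate 3 and without Sham replicate 4). That of Dld rose above 0.05 in 1 (the table without TAC replicate 1). The number of member probes higher at an unadjusted p under 0.05 was 1 with quantile normalization (Pdk2) and 2 with normexp (Pdk2 and Pdk4). It was 1 in the table of 8 arrays (a dimmer probe of Pdp1) and 1 in that table without TAC replicate 1 (Pdk4). With 1 array left out it was 0 to 1 (1 without TAC replicate 1 or TAC replicate 3). The median of the 10 genes was -0.24 in the table without TAC replicate 1, and between -0.43 and -0.30 with 1 scanner array left out. The medians of the 16 other lists turned direction in 35 of 336 comparisons. These belonged to glucocorticoid response (9), erythroid (7), lymphocyte (6) and macrophage markers (4), other regulators of the complex (3), sister dehydrogenases (3), regulators of Pdk4 (2) and white adipocyte markers (1). The sister dehydrogenases went from -0.08 to 0.01 with quantile normalization and 0.02 with normexp, and the other regulators from -0.13 to 0.01 without TAC replicate 1. In 2 of the 336 comparisons the median of one of these 16 lists moved by more than its standard deviation between arrays within the groups. These were endothelial markers, from 0.05 to 0.12 without Sham replicate 2, and white adipocyte markers, from 0.22 to -0.02 in the table without TAC replicate 1.

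The deviations of same-numbered arrays from their group means correlated at 0.0017, -0.026 and -0.021 in the scanner values (replicates 2 to 4). In the table they correlated at 0.27, 0.020, 0.056 and 0.020 (replicates 1 to 4). These correlations cannot show whether the mice were paired by design, and the main fit used no pairing. In the fit with a replicate block, 0 probes passed adjustment in either direction, and 1 member probe was higher and 8 were lower at an unadjusted p under 0.05 in the scanner values, where the block also drops the unpaired TAC replicate 1. All 14 member probes were well above background on the 7 scanner arrays. The estimate of Pdk3, the dimmest member, was 0.33 in the main fit and 0.16 with normexp background correction. The width of the intervals rests on the number of arrays and on their spread: without TAC replicate 1 the SE went from 0.19 to 0.09 for Dlat, from 0.17 to 0.09 for Pdhx, from 0.16 to 0.11 for Pdk4 and from 0.21 to 0.14 for Pdk3. The SE of Pdhb went from 0.17 to 0.18, and those of Pdk1 (0.11) and Pdp1 (0.12) were the same to these digits with and without that array.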
